A study of Homo sapiens with 9 samples.

Results

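The nuclear-encoded genes of the respiratory chain were examined in TIF-Seq2 data of K562 cells, an established human erythroleukemia cell line. The members were the Gencode v44 protein-coding genes whose symbols follow the naming of the NADH dehydrogenase, succinate dehydrogenase, cytochrome bc1, cytochrome c oxidase and ATP synthase subunits, together with CYC1 and CYCS. The rule selected 83 of the 20033 protein-coding genes, of which 35 belong to complex I, 4 to complex II, 9 to complex III, 15 to complex IV and 19 to complex V, and the last is CYCS. NDUFA4 was placed in complex IV, where it is now counted as a subunit. K562 cells had been exposed to 1 μM imatinib, an inhibitor of the BCR-ABL tyrosine kinase, or to the DMSO vehicle alone, for 24 h, with 2 biological replicates of each condition. A TIF-Seq2 read pair gives the transcription start site (TSS) and the poly(A) site (PAS) of a single capped and polyadenylated RNA molecule, and the 4 libraries held 2263121 to 5135829 deduplicated pairs, of which 88.4% to 90.7% were kept. A pair counted for a gene when both ends lay on its strand within 1 kb of its body. CPM below is counts per 1000000 kept pairs of the library. A recovered molecule gives 1 pair whatever its length, so no scaling to length was made. Whether recovery depended on length was not tested.

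The respiratory chain of the inner mitochondrial membrane passes electrons from NADH through complex I and from succinate through complex II to ubiquinone, then through complex III, the small soluble carrier cytochrome c and complex IV to oxygen. Complexes I, III and IV pump protons, and complex V, the ATP synthase, uses the gradient to make ATP. The nuclear genes examined here encode most subunits, and their proteins are imported after translation in the cytosol, while a few core subunits are encoded by the mitochondrial genome, whose transcripts were not analysed here. Cytochrome c is also released from mitochondria in apoptosis, where it triggers caspase activation.

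The boundary sequences that the results below turn on are printed here from the hg38 genome, 5′ to 3′ on the transcribed strand. A 3′ window is the last 30 bases up to the cleavage position of a PAS cluster, with the poly(A) signal AATAAA or ATTAAA in capitals where the window holds it. The 5 most used PASs of CYCS all lie in its annotated 3′ UTR, and each window is named by its distance before the end of the MANE transcript (the reference transcript chosen by Ensembl and RefSeq).
CYCS, 4179 bp before the end, chr7:25122835-25122864, minus strand: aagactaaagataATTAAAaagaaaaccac
CYCS, 4442 bp before the end, chr7:25123098-25123127, minus strand: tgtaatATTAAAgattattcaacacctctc
CYCS, 4947 bp before the end, chr7:25123603-25123632, minus strand: taatagatctcatacaccagaattcagatc
CYCS, 5014 bp before the end, chr7:25123670-25123699, minus strand: aattggccactgccttatttattacaaaac
CYCS, 4490 bp before the end, chr7:25123146-25123175, minus strand: taaaatggtttcttttacttattgaaaggc
ATP5PF, 48 bp before the end, chr21:25724548-25724577, minus strand: ttcagAATAAAcatgcatttcataactgtc
ATP5PF, 1 bp before the end, chr21:25724501-25724530, minus strand: tgagtccaAATAAAttatttggtgatgttg
UQCRFS1, 1952 bp before the end, chr19:29207272-29207301, minus strand: attctaATTAAAaattacagactggtgtac
UQCRFS1, 2070 bp before the end, chr19:29207390-29207419, minus strand: ttaatgtgaAATAAAttgaatttaatgttg
UQCRFS1, 2030 bp before the end, chr19:29207350-29207379, minus strand: ggcattcacttAATAAAgacactgttaagc

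The start windows are 30 bases around the most used position of a TSS cluster, with the first transcribed base in capitals. CYCS and ATP5PF are shown because each used an upstream start whose share differed between the conditions.
CYCS, annotated start, chr7:25125246-25125275, minus strand: cgtgtccttggacttAgagagtggggacgt
CYCS, 44 bp upstream, chr7:25125290-25125319, minus strand: agcgagtttggttgcActtacaccggtact
ATP5PF, annotated start, chr21:25734890-25734919, minus strand: gccagggccggaagtAgagcggaggtggtg
ATP5PF, 150 bp upstream, chr21:25735040-25735069, minus strand: ctccacttcctcctcCtgtttggcttctgt

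The 83 genes together held 515900 kept pairs. Their summed level was 37871 and 36924 CPM in the DMSO libraries and 37798 and 36770 CPM in the imatinib libraries, so the summed levels of the conditions overlapped. Complex V had the highest median level, 657 CPM over its genes, followed by complex IV with 254 CPM, complex I with 245 CPM, complex III with 173 CPM and complex II with 88.4 CPM. These medians include genes with few or no pairs. In complex IV 10 of 15 genes passed the filter for testing, and in complex I 35 of 35. The median over the 76 genes that passed the filter for testing was 290 CPM, against 25.0 CPM over the 9742 protein-coding genes tested.

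CYCS, which encodes somatic cytochrome c, had the highest mean level of all 83 genes with the 1 kb window around gene bodies, with 3863 and 3572 CPM under DMSO and 1416 and 2176 CPM after imatinib. UQCRH, the hinge subunit of complex III that binds near cytochrome c1, had 3023, 2490, 2408 and 2585 CPM in DMSO 1, DMSO 2, imatinib 1 and imatinib 2, the order used for all sets of 4 values below. UQCRB, a ubiquinone-binding subunit of complex III, had 2024, 2115, 2839 and 1947 CPM. Under DMSO both CYCS libraries lay above every UQCRH and UQCRB library, and after imatinib this order was gone. The levels of CYCS, UQCRH and UQCRB each moved by over 1.5 times with no window, and their order without it was not compared.

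**Figure D1:**
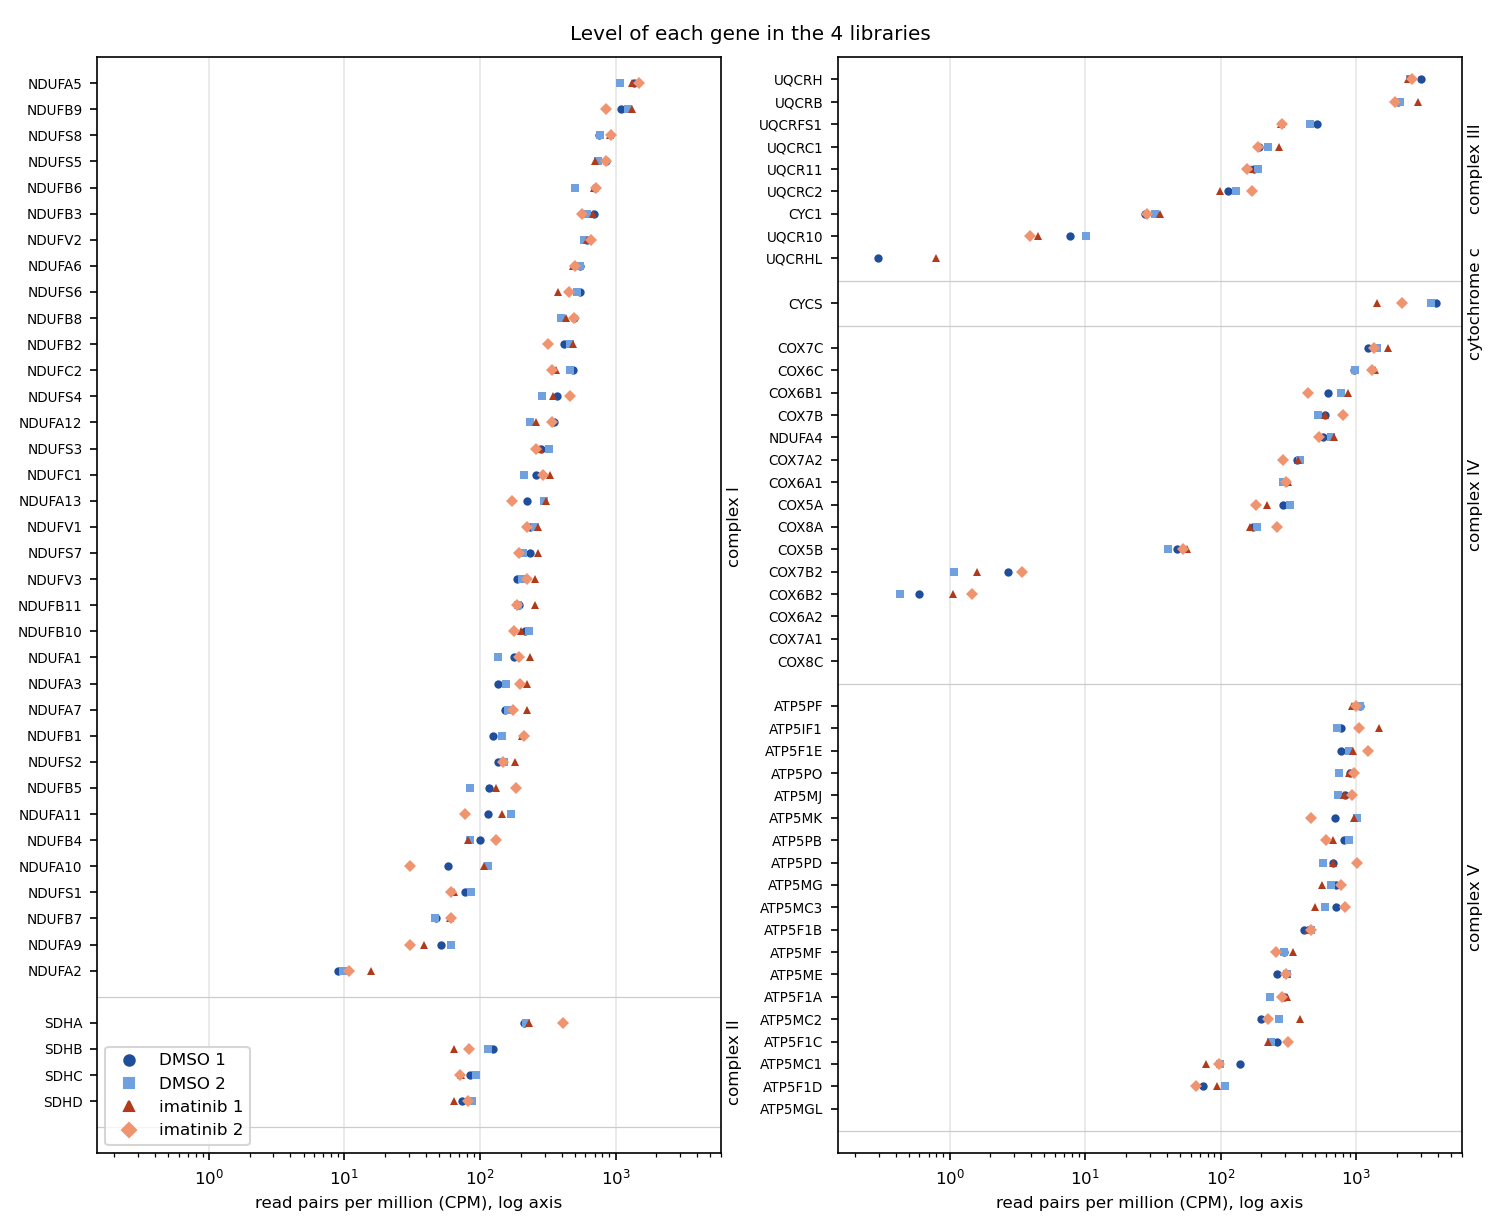
Level of each of the 83 genes in CPM (log axis) in the 4 TIF-Seq2 libraries, grouped by complex and ordered by mean level. Libraries with no read pair are not drawn. CYCS shows the widest gap between the conditions among the highly expressed genes.

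In complex I the highest levels belonged to NDUFA5, an accessory subunit of the hydrophilic arm, with 1372, 1071, 1333 and 1496 CPM. NDUFB9 of the membrane arm had 1097, 1242, 1319 and 853 CPM, and NDUFS8, which carries iron-sulfur clusters in the electron path, had 753, 766, 914 and 924 CPM. The conditions overlapped for NDUFA5 and NDUFB9 and not for NDUFS8. The lowest member of the complex was NDUFA2 with a mean of 11.3 CPM, so the genes of this complex spanned 11.3 to 1318 CPM.

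In complex II the catalytic flavoprotein gene SDHA had 212, 217, 231 and 408 CPM, and its highest value came from imatinib 2 alone. The iron-sulfur subunit gene SDHB had 124, 115, 64.0 and 83.4 CPM, lower in both imatinib libraries. The membrane anchors SDHC, with 84.1, 93.2, 72.7 and 70.7 CPM, and SDHD, with 74.0, 86.9, 64.0 and 82.0 CPM, lay close to each other. Both imatinib libraries of SDHC lay below both DMSO libraries, and those of SDHD overlapped. SDHA shared all of its pairs with another annotated protein-coding gene on the same strand, as did SDHD.

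In complex III the Rieske iron-sulfur protein gene UQCRFS1 followed UQCRH and UQCRB with 514, 458, 279 and 282 CPM. CYC1, which encodes cytochrome c1, had a mean of only 31.2 CPM, and UQCR10, a small subunit, had 7.76, 10.1, 4.51 and 3.90 CPM. UQCRHL, an intronless copy of UQCRH, had 1, 0, 3 and 0 pairs, 4 in all against 36049 for UQCRH. Pairs were kept by the authors only when they mapped uniquely, so levels of genes with close copies elsewhere in the genome, such as UQCRH, CYCS and several ATP synthase genes, are uncertain where an end cannot be placed.

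In complex IV the highest levels were those of COX7C, with 1219, 1415, 1707 and 1350 CPM, COX6C, with 970, 976, 1365 and 1304 CPM, and COX6B1, with 615, 768, 875 and 441 CPM. All of them are nuclear accessory subunits. The imatinib libraries of COX6C lay above both DMSO libraries, and the other pair of genes overlapped. Several subunits of this complex exist as paralogs with separate tissue expression, and in K562 cells the ubiquitous form carried nearly all pairs in each set. COX6A1 had 302, 290, 313 and 304 CPM, and its heart and muscle counterpart COX6A2 had no pair. COX7A2 had 369, 383, 371 and 287 CPM, and the muscle form COX7A1 had no pair. COX8A had 173, 187, 165 and 261 CPM, and COX8C had no pair. The ubiquitous forms were thus the only ones detected in these 3 sets. The testis form COX6B2 had 0.597, 0.431, 1.06 and 1.46 CPM from 11 pairs. COX7B had 587, 520, 586 and 797 CPM, while its paralog COX7B2 had 2.69, 1.08, 1.59 and 3.42 CPM from 27 pairs. COX6A1 shared all of its pairs with an overlapping annotated gene. A count of 0 over the 13805365 kept pairs allows a level of up to 0.217 CPM (3 pairs), which covers counting error only.

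In complex V the peripheral stalk gene ATP5PF had 1059, 1070, 934 and 1003 CPM. ATP5IF1, which encodes the inhibitor that blocks ATP hydrolysis by the synthase, had 774, 726, 1482 and 1044 CPM, and ATP5F1E, the epsilon subunit, had 773, 878, 954 and 1212 CPM. For ATP5IF1 and ATP5F1E both imatinib libraries lay above both DMSO libraries, and for ATP5PF both lay below. The 3 genes that encode the identical mature c subunit of the rotor differed in level. ATP5MC3 had 710, 592, 495 and 830 CPM, ATP5MC2 had 199, 269, 385 and 223 CPM and ATP5MC1 had 138, 98.6, 78.3 and 98.1 CPM, so every ATP5MC3 library lay above every ATP5MC2 library, and the latter above every ATP5MC1 library. ATP5MGL, a copy of ATP5MG, had no pair.

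The question of whether imatinib changed these levels was put to edgeR's quasi-likelihood test over all 9742 genes. A log2 fold change below is imatinib over DMSO, and a gene was called at a Benjamini-Hochberg adjusted p under 0.05. Of all genes tested, 12.4% were called, 7.33% as higher and 5.03% as lower after imatinib. Of the 76 chain genes tested, only CYCS was called, which is 1.32%, and none was called beyond a log2 fold change of 1.5, against 8% of all. CYCS fell by 1.05 on the log2 scale (SE 0.28, edgeR adjusted p = 0.036, 95% interval -1.67 to -0.43), to 0.483 of its DMSO level. In bulk libraries, fewer cells with a transcript and less of it per cell cannot be told apart. The CYCS call was lost, with the direction kept, when DMSO 1, DMSO 2 or imatinib 1 was left out (edgeR adjusted p = 0.123, 0.083 and 0.0997), and with a replicate block (edgeR adjusted p = 0.128). It was also lost when no window was allowed around the gene body (edgeR adjusted p = 0.062).

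Most of the other genes were bounded. The median log2 fold change of the 76 genes was 0.06, beside 0.02 over all genes tested, and 44 estimates were above 0 and 32 below. The 95% interval lay wholly within a 2-fold change in either direction for 56 of the 76 genes (73.7%), against 24.9% of all genes tested, whose SEs were wider, at a median of 0.35 against 0.26. By complex this held for 26 of 35 genes of complex I, 2 of 4 of complex II, 6 of 8 of complex III, 9 of 10 of complex IV and 13 of 18 of complex V. The conditions did not overlap in CPM for 16 of the 76 genes in the higher direction and 17 in the lower, while 29.5% and 28.8% of all genes tested did so.

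**Figure D2:**
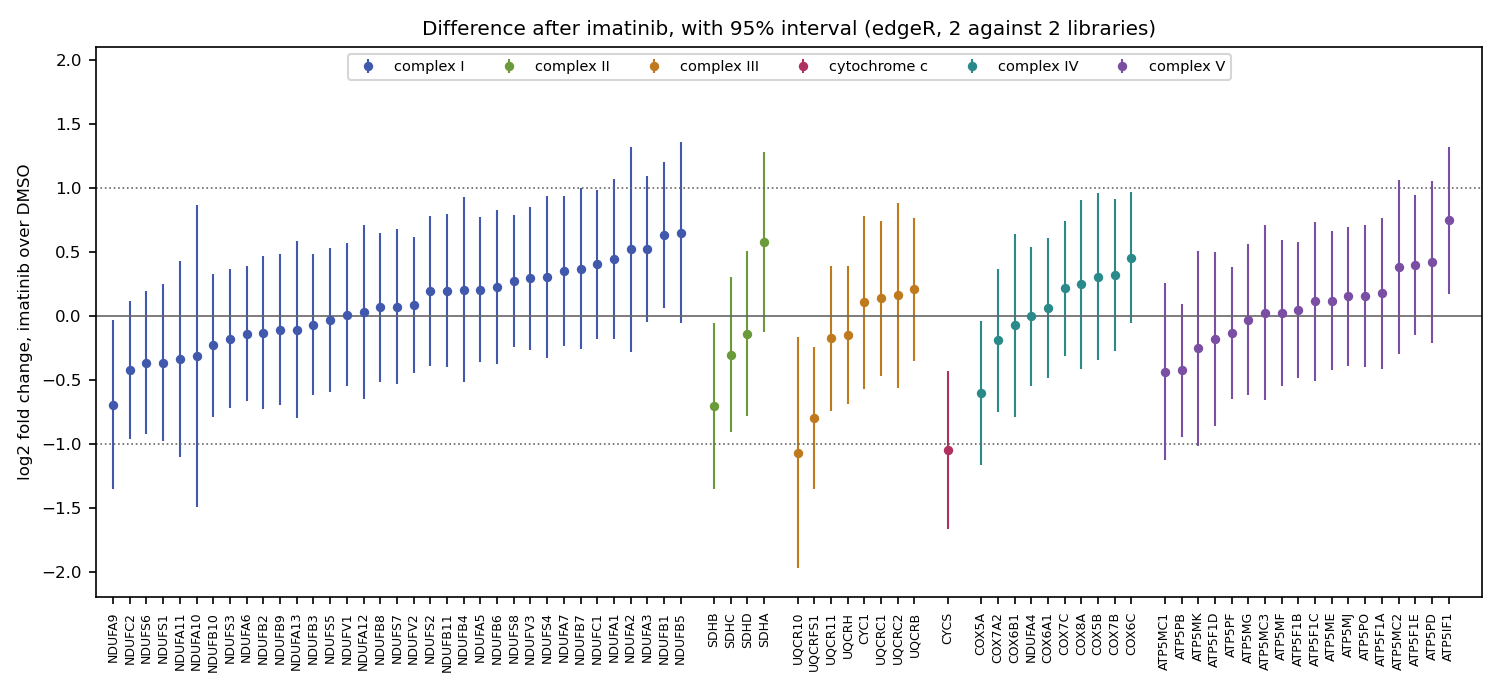
Log2 fold change of imatinib over DMSO for the 76 genes tested, with 95% intervals, ordered within each complex. The dotted lines mark a 2-fold change, and CYCS at -1.05 is the only called gene.

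At an unadjusted p under 0.05 there were 8 of 76 genes (10.5%, against 28.8% of all genes tested), and 7 of them missed the call. UQCRFS1 had a log2 fold change of -0.80 (SE 0.25, edgeR adjusted p = 0.064), and it was called in 5 other fits, among them those with library totals, without a filter on low counts, with no window and without imatinib 2. ATP5IF1 had a log2 fold change of 0.75 (SE 0.26, edgeR adjusted p = 0.087), and was called in 2 other fits, among them that without imatinib 2. UQCR10 had -1.07 (SE 0.40, edgeR adjusted p = 0.113) from 98 pairs. The next genes are named for their p, after their values were seen. SDHB had -0.70, COX5A, a core-proximal subunit of complex IV, -0.60, NDUFA9 -0.69 and NDUFB1 0.63, with edgeR adjusted p between 0.138 and 0.154. Without imatinib 2 the log2 fold change of SDHB was -0.94. COX5A was called only in the fit with crossed replicate numbers, which was chosen after seeing the data. That fit is also among those that called UQCRFS1 and ATP5IF1. Both imatinib libraries of each of these 7 genes lay on the same side of both DMSO libraries. The 7 genes were picked by p from the same libraries, so this adds no separate support. Of all genes tested, 29.5% were separated in this way in the higher direction and 28.8% in the lower.

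The paths around the chain were read from lists of other genes, beside the 12.4% of all genes tested that were called (7.33% as higher, 5.03% as lower). None of the 3 further nuclear subunit genes tested (COX4I1, COX7A2L and NDUFAB1, the mitochondrial acyl carrier protein) was called. Among 55 assembly factors, 2 were called as higher and 1 as lower. NDUFAF4, an assembly factor of complex I, had 803, 750, 286 and 381 CPM and a log2 fold change of -1.22 (edgeR adjusted p = 0.017). SDHAF4, for complex II, had 1.19, 1.51, 8.23 and 6.34 CPM and a log2 fold change of 2.41. SURF1, for complex IV, had 3.28, 3.67, 8.76 and 10.7 CPM and 1.46. The counts behind these 2 genes were low. Among 15 regulators of mitochondrial biogenesis none was called as higher and 2 as lower, TFB2M, a mitochondrial transcription factor, at -1.47 and TWNK, the mitochondrial DNA helicase, at -1.75. Of 14 genes of the tricarboxylic acid cycle, IDH2 was called as higher at 1.52 and IDH3A as lower at -1.81. IDH2 encodes the NADP-dependent and IDH3A a subunit of the NAD-dependent isocitrate dehydrogenase. The median log2 fold change was -0.28 over the assembly factors, -0.60 over the regulators, 0.08 over the tricarboxylic acid cycle and 0.07 over the further subunits, beside 0.02 over all genes tested.

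The cell line label was checked on markers. All 10 genes of erythroid K562 cells, among them the globin gene HBG2, exceeded 1 CPM in each library, and the sum of the 10 was 6945, 6222, 21013 and 19915 CPM. The erythroid sum was thus higher in both imatinib libraries, and most of it came from the globin genes HBG2, HBZ and HBE1. GATA1, with 200, 292, 280 and 219 CPM, and TAL1, with 15.2, 35.6, 102 and 28.3 CPM, overlapped between the conditions. The other genes of this list were higher in both imatinib libraries. The part of the erythroid genes in the CYCS difference was not tested. Of 10 markers of other cells, CD3E, MS4A1 and CD14 had no pair, while KRT18, EPCAM, LYZ and PECAM1 exceeded 1 CPM in every library. The sum of these 10 was 661, 731, 435 and 537 CPM.

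The isoforms of a gene were counted as TIFs, each a start cluster joined to an end cluster by 4 or more pairs over the 4 libraries. The 83 genes held 377 TIFs in 74 genes, and 277 (73.5%) had both ends within 200 bp of those of an annotated transcript. The median gene with a TIF had 4 TIFs, 2 TSS clusters and 2 PAS clusters, the same medians as over all 6449 protein-coding genes with a TIF. The main TIF, however, took a median of 83.1% of the pairs of a chain gene against 31.6% over all genes, and it took over 90% in 29.7% of the chain genes with a TIF against 2.47% of all. The chain genes were also deeper, with a median of 4058 pairs against 759. The shares are of all kept pairs of a gene, those in no TIF included, and sparse positions entered no cluster. Fewer pairs can thus lower the share, and the genes were not matched in depth.

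UQCRH and NDUFB9 are examples of a single dominant isoform. UQCRH had 34246 of its 36049 pairs in a TIF whose start lay 7 bp upstream and whose end lay 3 bp short of the annotated ones. NDUFB9 had 95.4% of its pairs in 1 of 3 TIFs. In complex V, 7 of 18 genes with a TIF had a main TIF over 90%, and in complex I, 10 of 34. In complex II none did.

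The most TIFs were found in CYCS with 31, NDUFA5 with 18, NDUFS3 with 15, COX6C with 14, and NDUFB6 and UQCRB with 13 each. In NDUFA5 the main TIF took 72.9% and ended 4038 bp before the MANE end, and 4 TSS clusters were combined with 12 PAS clusters. In COX6C the 2 main TIFs started 26 bp apart, took 60.4% and 25.3%, and shared a PAS, and a PAS cluster inside an intron took 10.0%, 10.2%, 5.8% and 7.8% of its TIF pairs. NDUFB6, a membrane arm subunit with 702, 501, 697 and 721 CPM, combined 3 TSS clusters with 5 PAS clusters, and its main TIF took 49.9%. UQCRB had 85.5% in its main TIF, and an intronic PAS took 5.1% of its TIF pairs. NDUFS3, a core subunit of the hydrophilic arm, had 284, 324, 278 and 257 CPM and overlaps its neighbour PTPMT1. Of its 15 TIFs 13 were assigned to PTPMT1, and 43.9% of its pairs were shared. Across the 83 genes, 14 shared all of their pairs with another protein-coding gene annotated on the same strand. With pairs of a single gene only, the level of 15 of the 83 genes moved by over 1.5 times, SDHA, SDHD and COX6A1 among them. With no window around the gene body that of 9 did, UQCRFS1 and SDHB among them.

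Ranked by the share of the second TIF, the first 4 genes were ATP5PF, UQCRFS1, SDHD and COX6C. ATP5PF had 51.3% of its pairs in a TIF ending at the proximal PAS printed above and 40.1% in one ending 47 bp further on, both with an AATAAA. UQCRFS1 distributed its pairs over 3 PAS clusters within 118 bp, each with a signal hexamer in the windows above, with 39.9%, 35.8% and 24.3% of its TIF pairs. They lay 1952 to 2070 bp before the MANE end of UQCRFS1, and the most used end position was 2070 bp from any annotated end. SDHD had 2 starts 18 bp apart, with 52.7% and 47.3% of its TIF pairs.

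**Figure D3:**
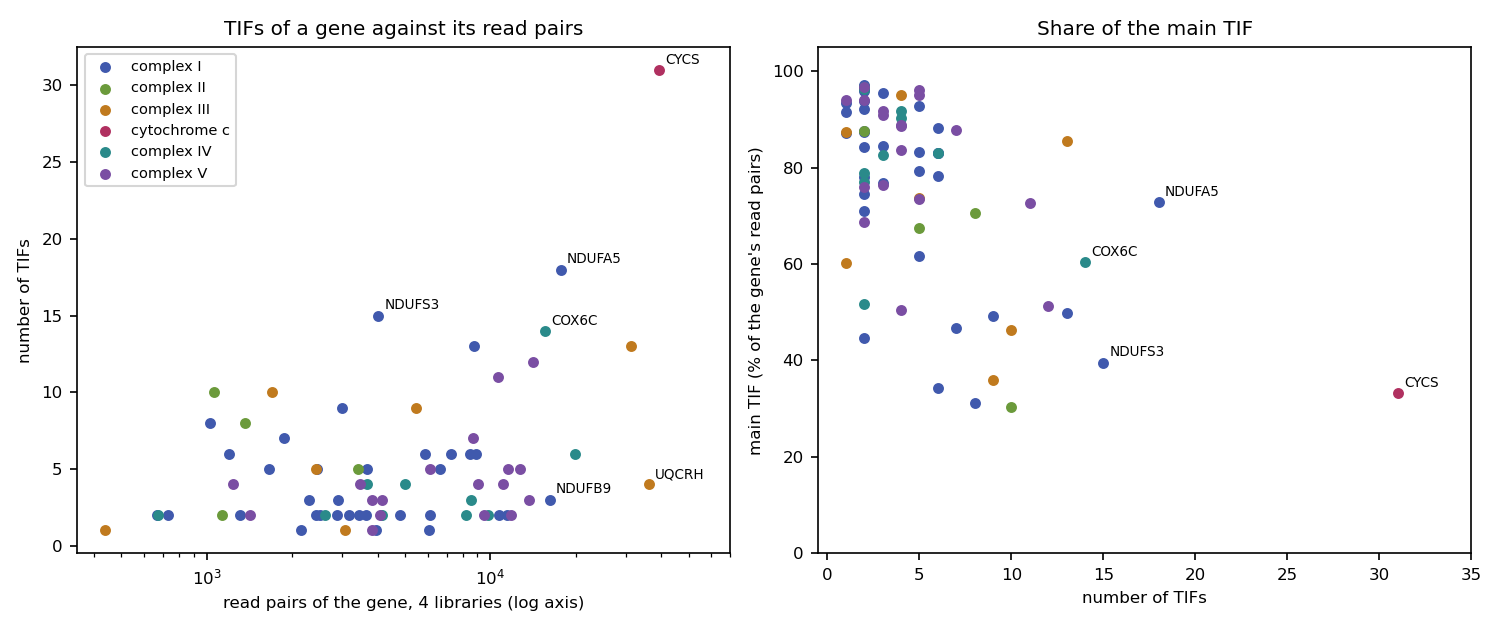
Number of TIFs of each gene against its kept read pairs (left, log axis), and the share of the main TIF against the number of TIFs (right), with complexes in colour. CYCS stands apart with 31 TIFs and a main TIF of 33.2%, while NDUFB9 had 3 TIFs at 16151 pairs and UQCRH 4 at 36049.

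Main ends were taken as the most used start and end position of the 77 genes with at least 20 pairs. The same was done for all 10556 protein-coding genes with at least 20 pairs. These were not matched in depth, with a median of 290 pairs against 3953 for the chain genes. The main start lay within 50 bp of the MANE start in 76 of the 77 genes (98.7%), against 71.6% of all 10556 genes. The exception was NDUFC1, a membrane arm subunit, whose main start lay 6642 bp downstream of the MANE start, at the start of another annotated transcript. The main end lay within 50 bp of the MANE end in 44 genes (57.1%, against 49.3% of all genes), and more than 1000 bp before it in 17 (22.1%, against 33.8%). Measured to the nearest end of any annotated transcript, 71 genes (92.2%) were within 50 bp, against 74.1% of all genes.

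Among the early ends, those of NDUFS1 (9090 bp before the MANE end), UQCRB (7988 bp), NDUFA9 (7086 bp), NDUFV3 (4200 bp), NDUFA5 (4038 bp), ATP5F1A (3900 bp) and ATP5F1E (3211 bp) all lay within 38 bp of the end of a shorter annotated transcript. For CYCS and UQCRFS1 the nearest annotated end was 472 and 2070 bp away. The most used end of NDUFS3, 12748 bp before its own, was the PAS of PTPMT1, though its own annotated PAS held 61.1% of its TIF pairs. Ends by complex varied, since within 50 bp were 21 of 35 genes in complex I, 3 of 4 in complex II, 3 of 8 in complex III, 5 of 11 in complex IV and 12 of 18 in complex V.

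**Figure D4:**
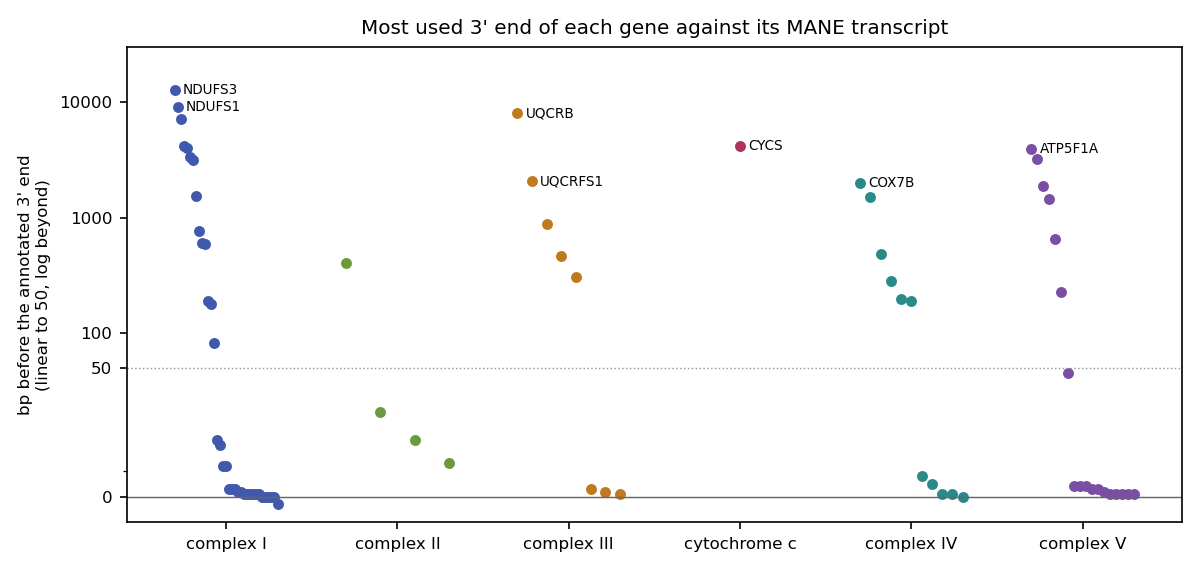
Distance in bp of the most used 3′ end of each gene before the 3′ end of its MANE transcript, by complex (axis linear to 50 bp and logarithmic beyond). In 44 of the 77 genes the end was within 50 bp of the annotation, and CYCS ended 4179 bp, UQCRB 7988 bp and NDUFS1 9090 bp before it.

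The sequence at the main ends was read for all these genes. AATAAA was present in the last 40 bases of 59 of the 77 genes (76.6%, against 66.8% of all 10556), ATTAAA alone in 13 (16.9% against 16.5%), and neither in 5 (6.49% against 16.7%). The median distance from the hexamer to the end was 15 bases in both sets. The main start was A in 49 genes and G in 20, so 89.6% started at a purine against 82.0% of all genes. A start with a C followed by 4 pyrimidines, the form of the terminal oligopyrimidine tract of many translation genes, was found for a median of 1.03% of pairs, against 1.43% over all genes. It reached 37.6% in ATP5MC2, 23.6% in ATP5MJ, 22.8% in ATP5MG and 20.1% in ATP5F1E, and exceeded 10% in 9 of 77 genes, a share (11.7%) near the 11.3% of all genes.

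Motifs were searched on both strands from 250 bases before to 49 after the main start, and none of the 3 motifs is contained in another. The main start lay within 50 bp of the MANE start in 98.7% of the chain genes and 71.6% of all genes. The windows of the 2 sets thus differ in how often they lie at the MANE start. The YY1 motif AAGATGGCG was in 12 of the 77 windows (15.6%), against 5.05% of all 10556. Of these 12, 8 were in complex I, which holds 35 of the 77 genes. The ETS motif CCGGAAG was in 23 (29.9% against 21.8%), among them ATP5PF, where it stands just before the annotated start printed above. The palindromic NRF1 consensus was in 3 (3.90% against 2.50%), in NDUFB4, SDHD and ATP5F1C. None of the 3 motifs was found at CYCS in this window. A match is a description of letters only.

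The 31 TIFs of CYCS combined 2 TSS clusters with 19 PAS clusters, 18 of them in the annotated 3′ UTR and 1 in the coding region, spread over 1264 bp. The gene lies at chr7:25118656-25125260 on the minus strand. The PAS 4179 bp before the MANE end took 35.9% and 35.7% of the TIF pairs under DMSO and 48.2% and 48.5% after imatinib. The next, at 4442 bp, took 22.7% and 21.8% under DMSO and at most 21.0% after imatinib. The PAS at 4947 bp took 14.1%, 14.7%, 16.7% and 12.8%, and that at 5014 bp 8.41%, 9.32%, 6.52% and 7.04%. Among the 5 printed PASs the most distal, the first of the windows, was thus the only one with a larger share in both imatinib libraries. Those at 4179 and 4442 bp carry an ATTAAA in the printed window and the other 3 printed windows hold neither hexamer. The 10 bases downstream of each of the 5 hold 2 to 4 A. Ends with 7 or more A there had been removed beforehand, so lying under that limit is no evidence on internal priming. The part of internal priming in these ends was not tested further.

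The annotated start of CYCS took most pairs, 3437, 3186, 1176 and 1879 CPM, and the start 44 bp upstream took 277, 234, 196 and 228 CPM. The upstream start held 7.45% and 6.84% of the TIF pairs under DMSO and 14.3% and 10.8% after imatinib. Of the 15 tested TIFs from the annotated start 11 were called as lower, and of the 8 tested from the upstream start none was called. TIF 1, from the annotated start to the 4179 bp PAS, held 4028, 5117, 2047 and 1841 pairs with a log2 fold change of -0.61 (SE 0.27, edgeR adjusted p = 0.165). TIF 5, to the 4490 bp PAS, held 771, 913, 163 and 134 pairs with -1.92 (SE 0.31, edgeR adjusted p = 0.0069). TIF 6, from the upstream start to the 4179 bp PAS, held 443, 543, 445 and 254 pairs with 0.03 (SE 0.27, edgeR adjusted p = 0.962). The difference between TIFs of the gene was tested by edgeR's diffSpliceDGE, with an adjusted p = 0.041, which was lost with a replicate block and when either DMSO library was left out.

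**Figure D5:**
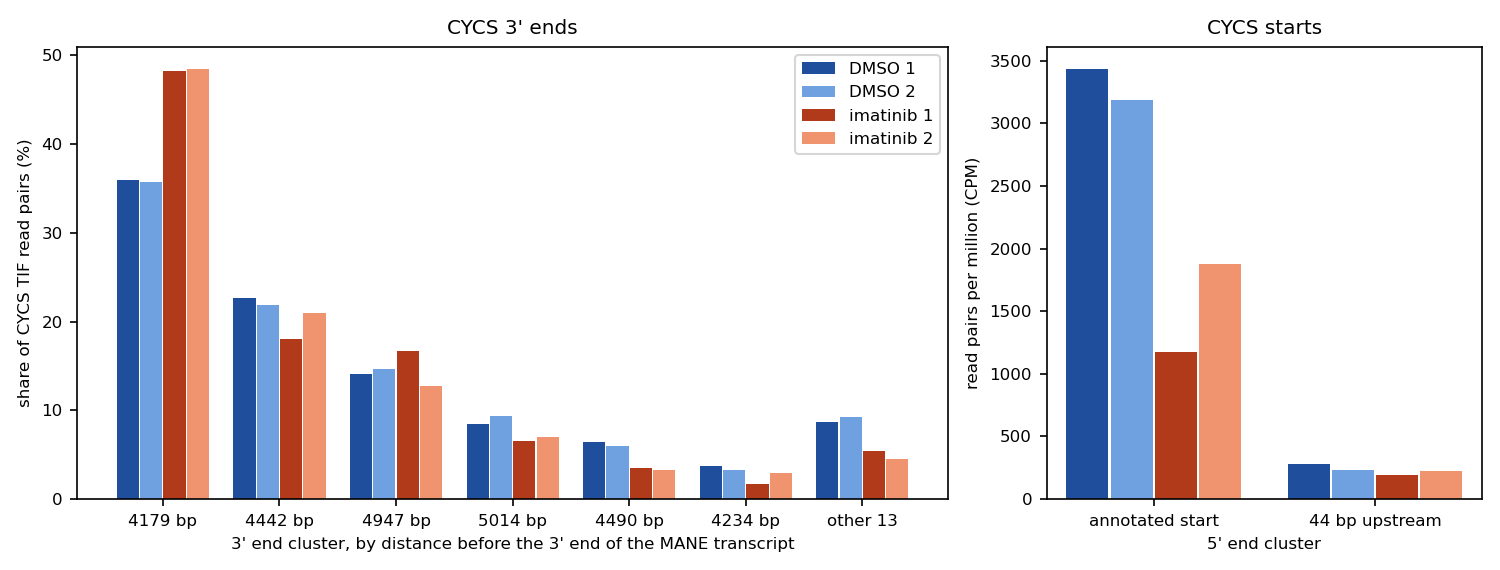
Left, share of CYCS TIF read pairs at its 6 most used 3′ end clusters and at the other 13, for each of the 4 libraries. Right, CPM of the 2 start clusters, where the annotated start had 3437 and 3186 CPM under DMSO and 1176 and 1879 CPM after imatinib, and the start 44 bp upstream lay between 196 and 277 CPM.

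Over all members, 236 TIFs were tested, and 4 were called as higher and 15 as lower after imatinib. That is 8.05%, against 11.8% of the 15833 TIFs tested in all genes, 6.72% as higher and 5.1% as lower. Of the 19 called TIFs 16 were beyond a log2 fold change of 1.5, and 10.4% of all TIFs tested were called beyond it. Of the 15 lower TIFs 11 belonged to CYCS, and TIFs of a gene share its change, so they are not independent. Outside CYCS, 8 of 213 TIFs (3.76%) were called, and apart from NDUFV3 each of them held under 5% of the pairs of its gene over the 4 libraries. With a replicate block 5 TIFs were called, in ATP5PF, CYCS and NDUFV3.

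Isoform usage was tested in 54 members with at least 2 testable TIFs, and 5 were called (9.26%, against 6.41% of all 3462 genes). They were ATP5PF (edgeR adjusted p = 0.0031), NDUFV3 (0.025), COX7A2 (0.026), NDUFC1 (0.033) and CYCS (0.041). None of the 5 calls was kept with a replicate block or without either DMSO library, when 15 to 56 genes were called in all.

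In ATP5PF, at chr21:25716503-25735673 on the minus strand, the start 150 bp upstream of the annotated one took 1.5% and 1.4% of the TIF pairs under DMSO and 7.3% and 3.7% after imatinib. Its TIF to the proximal PAS had 28, 31, 125 and 55 pairs and a log2 fold change of 2.08 (SE 0.40, edgeR adjusted p = 0.012). A TIF from a start 161 bp upstream to the same PAS had 3, 4, 13 and 11 pairs and a log2 fold change of 2.31 (SE 0.61, edgeR adjusted p = 0.038). The 2 main TIFs, from the annotated start, had log2 fold changes of 0.05 and -0.40 and were not called. The gene as a whole had a log2 fold change of -0.14, with a 95% interval of -0.65 to 0.38.

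NDUFV3 encodes a small accessory subunit of the NADH-binding module. Its TIF 2 started at chr21:42879644, the start of an annotated transcript without a coding region and 76 bp from the start of WDR4 on the other strand, and ended 9485 bp before the MANE start. It therefore holds none of the MANE transcript. NDUFV3 itself had 188, 203, 255 and 223 CPM. TIF 2 had 34, 39, 172 and 56 pairs, 5.41%, 4.14%, 17.9% and 12.3% of the gene, and a log2 fold change of 2.06 (SE 0.42, edgeR adjusted p = 0.014). TIF 1, the main coding isoform, had a log2 fold change of 0.14 (edgeR adjusted p = 0.788).

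In COX7A2 the main TIF took 89.0%, 89.9%, 95.1% and 95.4% of the pairs. A TIF with the same PAS starting 54 bp after the MANE start fell by 1.80 on the log2 scale, from 37 and 36 pairs to 11 and 4 (edgeR adjusted p = 0.0495). NDUFC1 had 258, 211, 330 and 293 CPM, and its main start took 76.0%, 75.3%, 70.4% and 72.7% of its TIF pairs. In NDUFC1 all 5 TIFs shared the PAS, and a TIF from an intronic start 1141 bp downstream of the MANE start rose by 2.34 on the log2 scale, from 7 and 5 pairs to 26 and 17 (edgeR adjusted p = 0.025). The main TIFs of COX7A2 and NDUFC1 were not called. The remaining called TIFs outside CYCS were lower, and were minor starts of NDUFA11 (TIF 4, 32, 45, 8 and 4 pairs), NDUFS6 (TIF 3, 13, 28, 0 and 2 pairs) and COX6B1 (TIF 2, 14, 20, 3 and 2 pairs).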

How the data were processed

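TIF-Seq2 libraries of K562 cells (2 DMSO, 2 imatinib) were grouped by their labels. The deposited tables hold raw counts of read pairs per pair of end positions. According to the paper, the authors trimmed reads with cutadapt 1.16, extracted UMIs with UMI-tools, aligned both ends separately to hg38 with STAR 2.5.3a, kept uniquely mapped pairs on 1 chromosome and removed duplicates by UMI. No filter on internal priming had been applied to the deposited counts. The tables hold 24 chromosomes and no mitochondrial genome. Molecules without a unique position, and any dependence of the protocol on transcript length, affect the levels and the shares of ends and isoforms.

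Pairs 300 bp to 2000000 bp apart with fewer than 7 A in the 10 nt after the 3′ end were kept (3351643, 4636566, 3767303 and 2049853). Counts per position were scaled as in CAGEr (power law, exponent 1.25, fitted on 10 to 1000 tags, 1000000 reference tags), kept at 1 normalized count in 2 libraries, joined within 10 bp and linked to TIFs by at least 4 pairs. Genes and TIFs were tested with edgeR 4.0.16 (R 4.3.3, TMM, filterByExpr, robust quasi-likelihood fit, Benjamini-Hochberg over all features), usage with diffSpliceDGE. DESeq2 1.42.0 was an alternative. SEs are the log2 fold change over the square root of F. The fits were tested on simulated data. Replicates differed by more than counting error (chi-square per degree of freedom 10.3 for DMSO, 16.5 for imatinib). The members, the gene lists and the tests were chosen with earlier results of these data known. Values per library are given for the 3 highest genes of each complex, the called genes, those with the most TIFs or the largest share in a second TIF, those under 20 pairs, the members of complex II and the paralog sets. Genes named for a p under 0.05, an early end or a motif were chosen after their values were seen. Fixed lists are described by counts. Some genes of the chain are not reported here, and the PacBio and 3′T-fill samples were not used here.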

Additional observations from a re-analysis of the deposited data

How the results depend on the processing

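Of the chain genes, 1 was called, 2 with library totals or without a filter on low counts, and 0 with a log2 fold change beyond 1.5 required or with a replicate block. Leaving out a library gave 0 to 4. With no window around the gene body UQCRFS1 was called in place of CYCS. CYCS kept its direction throughout, between -1.43 and -0.73 without a library. Called TIFs numbered 19, but 12 with DESeq2, 5 with a replicate block and 6 to 32 without a library. Genes called for usage numbered 5, but 3 with TIFs of at least 10 pairs, 0 with a replicate block and 0 to 4 without a library. The lone library left in a condition was assumed to vary like the other condition. Deviations of libraries with the same replicate number had r = -0.30. With 2 libraries in each condition this cannot show whether the cultures were matched. Crossing the replicate numbers, an alternative chosen after seeing the data, called 4 genes, 40 TIFs and 6 genes for usage. The 377 TIFs became 807 with positions of 2 pairs and no normalization and 124 when a TIF needed 5% of the pairs of its gene, and 326 to 365 without a library. The median level of 269 CPM was 207 CPM with pairs of a single gene only and 245 CPM with no window. Ends within 50 bp numbered 76 and 44 against the MANE transcript, and 77 and 71 against any transcript. Over all features, genes called were 1204 and 442 to 2423 without a library, 2053 without the filter, 746 with the replicate block and 779 beyond 1.5. TIFs called were 1872, 1209 with DESeq2, 3103 without the filter, 824 with the block and 704 to 3571 without a library. Usage calls were 222, 56 with the block and 15 to 213 without a library. The cause of these shifts was not tested. Depth limits minor TIFs, such as those of COX6B1 (39 pairs) and NDUFS6 (43 pairs) that were called.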
